A study of Mus musculus with 6 samples.

Results

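The deposited RNAseq table of activated mouse CD4+ T cells holds 23420 genes. Of these, 41 genes of autophagy and mitophagy, a chosen list and not all such genes, were followed across 3 groups of 2 libraries each. They were chosen by symbol, with earlier results of these data known, and all 41 were found and passed the filter on low counts. Balb/c mice aged 12 weeks gave the splenic CD4+CD62L+ cells, which were purified with magnetic beads and activated on plates coated with antibodies to CD3 and CD28. Concentrated lentivirus (10 µl per well) was added after 24 h. The first group received *Dyrk1a* shRNA, the second control shRNA (a scrambled hairpin) followed by 3.7 µM harmine, and the third control shRNA alone. By the labels, all groups were fed 24 h after the virus with medium and IL-2 and harvested 48 h later. The methods differ from the labels in the volume of virus and name no IL-2 for cells used for RNAseq. The methods list several *Dyrk1a* hairpins without saying which of them these libraries received. An shRNA is a short hairpin that directs the breakdown of a matching mRNA, DYRK1A is a dual-specificity kinase, and harmine is a plant alkaloid that inhibits it together with other targets. The study asked which pathways knockdown of the kinase and the compound engage in these cells. No source says whether the replicates came from separate animals or cultures, so the p-values below measure the spread between these libraries, which may be technical.

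Autophagy encloses cytoplasm in a double membrane and delivers it to the lysosome. The ULK kinase complex starts the process, a PI3-kinase complex marks the membrane, lipid carriers extend it, and ubiquitin-like conjugation attaches proteins of the LC3 and GABARAP families to it, to which cargo receptors bind. Mitophagy is the same route taken by mitochondria, either through the kinase PINK1 and the ligase Parkin or through receptors of the outer membrane such as BNIP3 and NIX. T cells use both to keep mitochondrial content in check after activation and to survive into memory.

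The libraries held 2678885 and 3274064 counts with *Dyrk1a* shRNA, 3441078 and 3747663 with harmine, and 1743441 and 1096364 with control shRNA, so the control values are the least precise. *Cd3e* and *Cd4* were detected in every library. Summed CPM (counts relative to the TMM-scaled size of the library) of 7 CD4 T cell markers was 3454 to 4122, against 23.8 to 38.0 for 8 B cell markers, 38.8 to 89.8 for 9 markers of CD8 T and NK cells and 18.0 to 32.6 for 7 erythroid and platelet markers. *Gzmk* and *Hba-a2* were at 0 in every library. The 9 myeloid markers summed to 149.5 to 182.7 CPM with *Dyrk1a* shRNA, 139.9 to 155.3 with harmine, and 280.6 and 147.7 in control replicates 1 and 2, and their part in the results below was not tested. Ribosomal protein genes took 22.3% and 12.5% of counts in control replicates 1 and 2 and 15.2% to 16.6% in the other 4 libraries. *Dyrk1a* itself had 60.2 and 61.9 CPM with *Dyrk1a* shRNA, 74.8 and 77.6 CPM with harmine, and 58.4 and 82.7 CPM in controls, so that the controls enclosed the *Dyrk1a* shRNA libraries and a lower level of the targeted mRNA was not detected. Groups are therefore named as labelled. Its log2 fold change with *Dyrk1a* shRNA was -0.19 (standard error 0.21, 95% interval -0.64 to 0.25, edgeR adjusted p = 0.835). In bulk RNA, fewer cells expressing a gene and less RNA per cell cannot be told apart.

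No autophagy or mitophagy gene passed the test in any comparison (adjusted p under 0.05), where 0.0189% of the 10607 genes tested passed with *Dyrk1a* shRNA, 0.00943% with harmine and 0.00943% between the treatments. *Pink1*, the kinase that marks damaged mitochondria, was the 1 gene with an unadjusted p under 0.05 against control in both treatments, at 1.81-fold with *Dyrk1a* shRNA and 1.60-fold with harmine. *Rb1cc1*, a scaffold of the ULK complex, was lowest with *Dyrk1a* shRNA, and *Gabarapl1*, an LC3-like protein, was higher there than with harmine. *Pik3r4* and *Optn* were lowest with harmine alone. These 5 genes were the only ones of the 41 with an unadjusted p under 0.05 in any of the 3 comparisons, and the smallest adjusted p among them was 0.612.

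Promoter sequence is shown for 3 of the genes. *Pink1* had the smallest unadjusted p of the 41 with *Dyrk1a* shRNA against control, and *Gabarapl1* the smallest between the treatments. *Pik3r4*, with the smallest for harmine against control, is not shown. *Atg3* carries the E-box read by TFEB and TFE3, the transcription factors among the 41. Each sequence is the 250 bases before the start annotated by RefSeq on GRCm38.p6, written 5′ to 3′. The letters CACGTG (E-box) and GGGCGG (GC box, the motif of SP1) are in capitals on either strand. GENCODE places the gene starts inside these stretches, at 138326307 for *Pink1*, 129533160 for *Gabarapl1* and 45158785 for *Atg3*. By that annotation the last bases of each stretch belong to the gene.
*Pink1*, chr4:138326297-138326546, minus strand: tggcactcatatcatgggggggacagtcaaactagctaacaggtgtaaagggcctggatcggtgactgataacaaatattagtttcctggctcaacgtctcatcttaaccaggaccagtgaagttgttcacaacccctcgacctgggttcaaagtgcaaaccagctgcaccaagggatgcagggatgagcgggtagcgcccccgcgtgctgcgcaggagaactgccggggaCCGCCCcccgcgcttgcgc
*Gabarapl1*, chr6:129532942-129533191, plus strand: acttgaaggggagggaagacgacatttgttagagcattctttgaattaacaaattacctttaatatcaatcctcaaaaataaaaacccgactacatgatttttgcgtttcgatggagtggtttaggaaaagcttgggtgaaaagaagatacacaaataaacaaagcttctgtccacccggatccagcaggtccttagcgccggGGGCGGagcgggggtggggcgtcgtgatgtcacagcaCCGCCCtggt
*Atg3*, chr16:45158579-45158828, plus strand: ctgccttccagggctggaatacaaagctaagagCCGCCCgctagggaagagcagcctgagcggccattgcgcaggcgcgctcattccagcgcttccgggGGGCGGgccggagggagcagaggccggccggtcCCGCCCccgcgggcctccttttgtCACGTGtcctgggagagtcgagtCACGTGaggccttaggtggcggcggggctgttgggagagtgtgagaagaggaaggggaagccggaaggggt

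*Atg3* held 2 E-boxes, and *Pink1* and *Gabarapl1* held none, with 1 and 2 GC boxes. RefSeq promoters were matched for 34 of the 41 genes (41 promoters). E-boxes stood in those of 4 genes, *Atg3*, *Atg5*, *Atg7* and *Bnip3*, or 9.76% of the 41 promoters, against 6.02% of all 32851 promoters of the same length. GC boxes stood in 63.4% of them, against 32.7% of all. The 41 genes all passed the filter on low counts, whereas the promoters of all genes were not limited to genes that did. The part of this difference in these shares was not tested. The cyclic AMP response element TGACGTCA stood in 1 promoter, that of *Atg16l2*, or 2.44% against 1.55%. E-box and GC box share no letters that overlap in these 3 sequences, and a match is a run of letters, not a bound site.

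Mean levels over the 6 libraries ran between 4.70 CPM (*Atg10*) and 943 CPM (*Bnip3l*). Of the 41 genes, 10 had 100 CPM or more and 5 had under 10 CPM. Per kilobase of the longest annotated transcript, the mitophagy receptors *Bnip3* and *Bnip3l* (which encodes NIX) led with 500 and 289 CPM per kilobase. *Gabarap* followed with 160, *Gabarapl2* with 77.8 and *Map1lc3b*, which encodes LC3B, with 70.5. The lowest were *Atg4c* with 1.68, *Atg7* with 2.56, *Wipi1* with 2.93 and *Atg10* with 2.97 CPM per kilobase. Replicates differed by a median of 0.21 (*Dyrk1a* shRNA), 0.23 (harmine) and 0.30 (control) on the log2 scale over the 41 genes, against 0.21, 0.20 and 0.35 over the 9666 tested genes in the same range of CPM. The widest gap between replicates was that of *Atg4c* in the controls, 1.26 and 5.07 CPM. Expected counts were whole numbers in all 6 libraries for 35 of the 41 genes. The other 6 were *Atg2b*, *Atg4c*, *Atg4d*, *Atg10*, *Becn1* and *Uvrag*, where reads were shared out with other genes and the values are less certain.

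**Figure D1:**
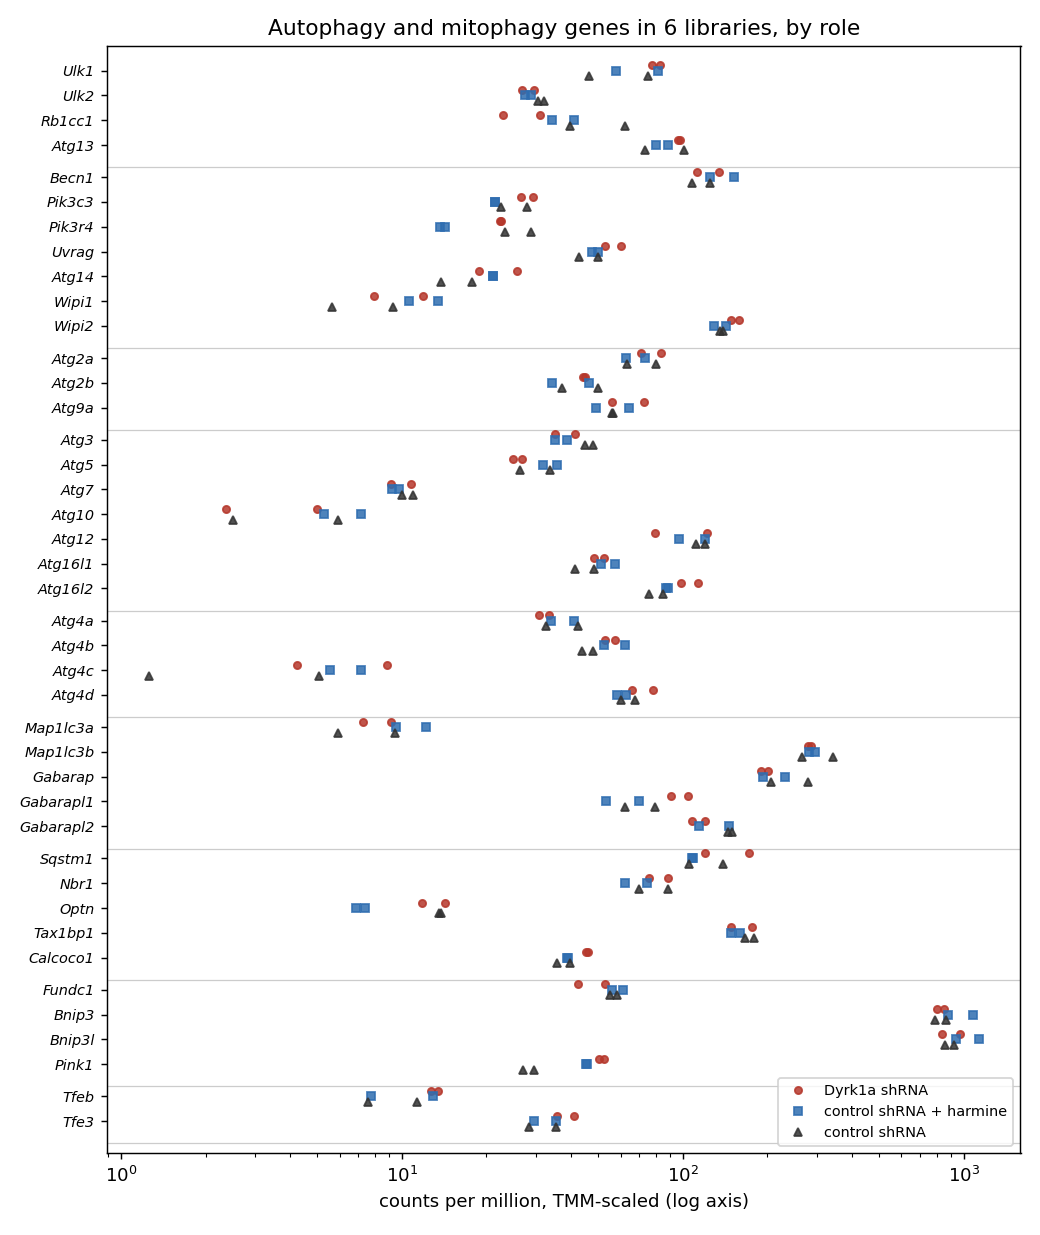
CPM (TMM-scaled, log axis) of the 41 genes in each library, by role from the ULK complex (top) to the transcription factors (bottom). Each symbol is 1 library, and *Bnip3* and *Bnip3l* lie far to the right of the rest, with group symbols close together for most genes.

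In the initiation complex, *Rb1cc1* had 23.0 and 31.0 CPM with *Dyrk1a* shRNA, 41.1 and 34.3 with harmine, and 39.5 and 62.5 in controls. RB1CC1, also called FIP200, is the scaffold that holds the ULK complex together. Both *Dyrk1a* shRNA libraries lay below the other 4, and control replicate 2 stood well above control replicate 1. The log2 fold change was -0.88 with *Dyrk1a* shRNA (standard error 0.26, 95% interval -1.44 to -0.33, unadjusted p = 0.00365, adjusted p = 0.612) and -0.42 with harmine (standard error 0.25, adjusted p = 0.927). Without control replicate 2 the values were -0.53 with *Dyrk1a* shRNA (unadjusted p = 0.0723, adjusted p = 0.347) and -0.071 with harmine (unadjusted p = 0.796). Without control replicate 1 they were -1.20 and -0.73 (unadjusted p = 0.000332 and 0.0117). Across the alternatives the adjusted p with *Dyrk1a* shRNA ran between 0.119 and 1.00. An antisense transcript annotated over *Rb1cc1* was not in the table, and the library protocol does not mark strand. The same held for antisense transcripts over *Optn*, *Bnip3*, *Atg14* and *Uvrag*. It also held for *Mrnip* and *Gm43966*, on the strand opposite to *Sqstm1* and *Tax1bp1*. The part of such transcripts in the counts was not tested.

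The other members of that complex had no unadjusted p under 0.05. *Atg13*, an adaptor of the kinase, had 97.3 and 96.1 CPM with *Dyrk1a* shRNA, 80.2 and 88.4 with harmine, and 73.4 and 101.3 in controls, with the treated libraries inside the span of the controls. Its log2 fold changes were 0.16 (standard error 0.20, adjusted p = 0.878) with *Dyrk1a* shRNA and -0.04 (standard error 0.20, adjusted p = 0.988) with harmine. *Ulk1*, the initiating kinase, had 0.42 with *Dyrk1a* shRNA (standard error 0.24, adjusted p = 0.704) and 0.22 with harmine (standard error 0.24, adjusted p = 0.956). *Ulk2*, its paralog, had -0.15 in each (adjusted p = 0.901 and 0.962). Its treated libraries all lay below both controls, with 29.5 and 26.8 CPM with *Dyrk1a* shRNA, 28.9 and 27.5 with harmine, and 32.0 and 30.4 in controls.

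The PI3-kinase complex consists of the lipid kinase VPS34 (*Pik3c3*), its anchor VPS15 (*Pik3r4*), Beclin 1 (*Becn1*) and either ATG14 or UVRAG. *Pik3r4* had 22.6 and 22.4 CPM with *Dyrk1a* shRNA, 13.7 and 14.3 with harmine, and 23.2 and 28.7 in controls. Both harmine libraries lay below the other 4, which held 22.4 to 28.7 CPM. Its log2 fold change was -0.88 with harmine (standard error 0.27, 95% interval -1.45 to -0.30, unadjusted p = 0.00532, adjusted p = 0.818) and -0.19 with *Dyrk1a* shRNA (standard error 0.26, adjusted p = 0.886). *Dyrk1a* shRNA against harmine gave 0.68 (standard error 0.25, unadjusted p = 0.0144, adjusted p = 0.828). *Pik3c3* had 26.4 and 29.2 CPM with *Dyrk1a* shRNA, 21.5 and 21.4 with harmine, and 22.6 and 27.9 in controls. Both harmine libraries were again the lowest, at a log2 fold change of -0.22 with harmine (standard error 0.25, adjusted p = 0.957) and 0.38 for *Dyrk1a* shRNA over harmine (standard error 0.22, adjusted p = 0.866). With harmine *Becn1* was at 0.26, *Uvrag* at 0.08 and *Atg14* at 0.44 on the log2 scale, with adjusted p of 0.938 or more. For *Atg14* all treated libraries lay above both controls. It had 18.77 and 25.65 CPM with *Dyrk1a* shRNA, 21.16 and 21.12 with harmine, and 13.81 and 17.73 in controls. Its log2 fold change with *Dyrk1a* shRNA was 0.52 (standard error 0.30, adjusted p = 0.7045). *Becn1* overlaps *Cntd1* on the opposite strand, and with the counts of both summed it was at 0.27 with harmine and 0.10 with *Dyrk1a* shRNA.

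The WIPI proteins bind the lipid that this complex makes. *Wipi2* had 147.9 and 158.6 CPM with *Dyrk1a* shRNA, 129.3 and 142.3 with harmine, and 135.6 and 138.5 in controls. Both *Dyrk1a* shRNA libraries lay above the other 4, with log2 fold changes of 0.16 (adjusted p = 0.840) and -0.01 (adjusted p = 0.998), each with a standard error of 0.18. *Wipi1*, its paralog, was lower in level, with 5.65 to 13.4 CPM, and had 0.43 with *Dyrk1a* shRNA (standard error 0.43) and 0.72 with harmine (standard error 0.41). Of the lipid carriers, *Atg2a* had 70.9 and 83.4 CPM with *Dyrk1a* shRNA, 62.6 and 73.1 with harmine, and 63.4 and 80.2 in controls, and the groups overlapped. The log2 fold changes were 0.12 (adjusted p = 0.918) and -0.07 (adjusted p = 0.981), each with a standard error of 0.21. *Atg2b* and the scramblase gene *Atg9a* stayed between -0.09 and 0.20 in both comparisons with control.

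Among the conjugation enzymes, *Atg12*, the ubiquitin-like protein joined to ATG5, was the most abundant in CPM. It had 121.5 and 79.6 CPM with *Dyrk1a* shRNA, 119.5 and 96.9 with harmine, and 111.1 and 119.9 in controls, and the second replicate of each treatment was lower than the first. On the log2 scale it was at -0.20 (adjusted p = 0.835) and -0.09 (adjusted p = 0.977), each with a standard error of 0.22. *Atg3*, the enzyme that transfers LC3 to lipid, had 41.4 and 35.1 CPM with *Dyrk1a* shRNA, 38.7 and 35.1 with harmine, and 47.7 and 44.7 in controls. Here all 4 treated libraries lay below both controls, at log2 fold changes of -0.28 and -0.33 (adjusted p = 0.756 and 0.933). *Atg16l2*, a paralog of the scaffold gene *Atg16l1*, showed the opposite order, with 113.4 and 98.2 CPM with *Dyrk1a* shRNA, 88.2 and 86.9 with harmine, and 84.7 and 76.0 in controls. Its log2 fold change with *Dyrk1a* shRNA was 0.39 (standard error 0.19, adjusted p = 0.656). *Atg5*, *Atg7*, *Atg10* and *Atg16l1* lay between -0.20 and 0.18 with *Dyrk1a* shRNA and between -0.14 and 0.62 with harmine. All treated libraries of *Atg16l1* lay above both controls, with 48.27 and 52.47 CPM with *Dyrk1a* shRNA, 57.52 and 51.22 with harmine, and 41.43 and 48.12 in controls.

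The ATG4 proteases trim LC3 and GABARAP proteins before conjugation and release them afterwards. *Atg4d* had 78.5 and 65.7 CPM with *Dyrk1a* shRNA, 58.1 and 62.6 with harmine, and 60.3 and 67.5 in controls, so that the groups overlapped in both comparisons with control. The fitted values were 0.18 (adjusted p = 0.850) and -0.08 (adjusted p = 0.979), each with a standard error of 0.20. It overlaps *Kri1* on the opposite strand, and the summed counts gave 0.29 and 0.20. *Atg4b*, the most active of these enzymes, had 57.5 and 52.8 CPM with *Dyrk1a* shRNA, 52.5 and 62.0 with harmine, and 47.7 and 43.9 in controls, with all treated libraries above both controls (log2 fold changes of 0.26 and 0.32, adjusted p = 0.766 and 0.933). *Atg4c* had the largest fitted fold changes of all 41 genes, 1.19 and 1.104, but rested on 2 and 6 counts in the controls, with a standard error of 0.64 for each.

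The LC3 and GABARAP proteins coat the autophagic membrane. *Map1lc3b* had 285 and 279 CPM with *Dyrk1a* shRNA, 281 and 296 with harmine, and 343 and 266 in controls, and the controls enclosed all treated libraries. Its fold changes on the log2 scale were -0.11 (adjusted p = 0.906) and -0.08 (adjusted p = 0.976), each with a standard error of 0.19. *Gabarapl1* had 104.6 and 90.5 CPM with *Dyrk1a* shRNA, 70.0 and 53.3 with harmine, and 79.7 and 62.5 in controls. Both *Dyrk1a* shRNA libraries lay above the other 4, and the harmine and control libraries overlapped.

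For *Gabarapl1* the log2 fold change of *Dyrk1a* shRNA over harmine was 0.66 (standard error 0.20, 95% interval 0.24 to 1.09, unadjusted p = 0.00452, adjusted p = 0.709). Against control it was 0.44 with *Dyrk1a* shRNA (standard error 0.21, adjusted p = 0.646) and -0.22 with harmine (standard error 0.21, adjusted p = 0.952). Leaving out 1 library gave 0.48 (without harmine replicate 2, unadjusted p = 0.0926) to 0.87 between the treatments. Against control it gave 0.29 (without control replicate 2) to 0.64 (without control replicate 1) with *Dyrk1a* shRNA. With harmine it gave -0.42 without harmine replicate 1 and -0.37 without control replicate 2, but -0.034 without harmine replicate 2 and -0.022 without control replicate 1. As a share of the counts of all 5 family members the gene can also be read within each library, without scaling. *Gabarapl1* made up 14.6% (Wilson 95% interval 13.03 to 16.2) and 13.4% (12.1 to 14.9) with *Dyrk1a* shRNA. It made up 9.46% (8.37 to 10.7) and 8.003% (7.01 to 9.13) with harmine, and 9.25% (7.83 to 10.9) and 9.13% (7.33 to 11.3) in controls. These intervals cover counting error only. *Gabarap* and *Gabarapl2* were below control with *Dyrk1a* shRNA in 2 of 2 libraries each, at log2 fold changes of -0.32 and -0.37 (adjusted p = 0.718 and 0.667). The share of *Map1lc3b* stayed between 37.9% and 44.5% in all 6 libraries, and that of *Map1lc3a* between 0.863% and 1.65%.

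**Figure D2:**
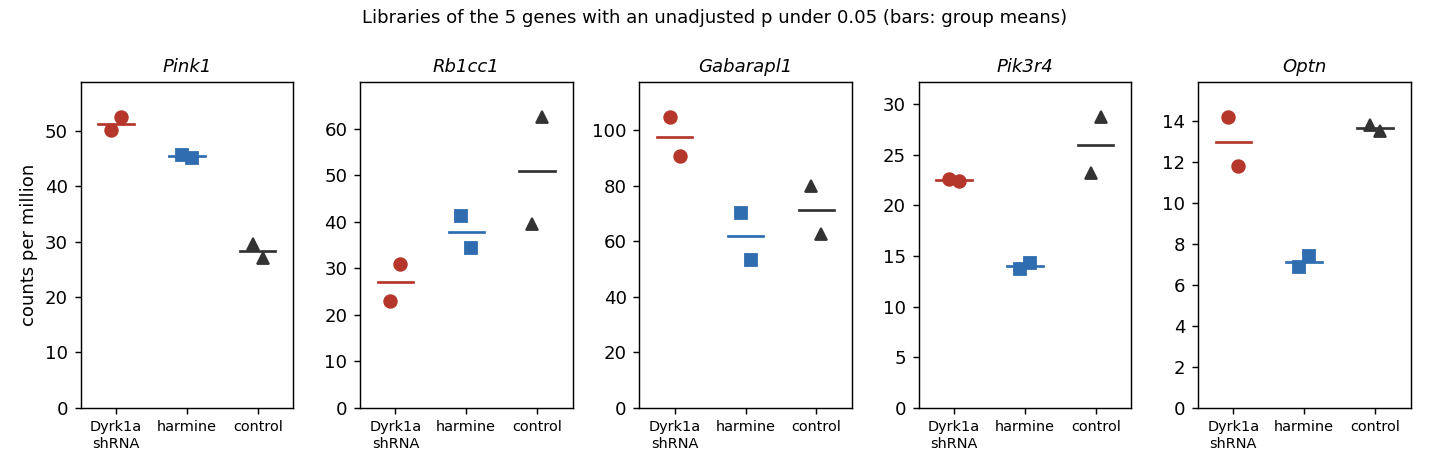
CPM of *Pink1*, *Rb1cc1*, *Gabarapl1*, *Pik3r4* and *Optn* by group, 1 symbol per library and a bar at each group mean, on axes from 0. All 4 treated libraries lie above both controls for *Pink1*, and the harmine libraries alone lie low for *Pik3r4* and *Optn*.

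Cargo receptors link ubiquitinated proteins or organelles to LC3. *Optn*, which encodes optineurin, a receptor for mitochondria marked by PINK1, had 14.2 and 11.8 CPM with *Dyrk1a* shRNA, 6.86 and 7.39 with harmine, and 13.8 and 13.5 in controls. The harmine libraries lay below the other 4, and those 4 could not be ordered by group. Its log2 fold change was -0.93 with harmine (standard error 0.35, 95% interval -1.68 to -0.19, unadjusted p = 0.0166, adjusted p = 0.903) and -0.08 with *Dyrk1a* shRNA (standard error 0.33, adjusted p = 0.970). *Dyrk1a* shRNA over harmine gave 0.85 (standard error 0.31, unadjusted p = 0.0149, adjusted p = 0.828). The gene rested on 23 and 28 counts with harmine and 22 and 16 in controls, and after random thinning to equal depth the unadjusted p with harmine was 0.110.

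*Tax1bp1*, the most abundant receptor, had 148.3 and 176.3 CPM with *Dyrk1a* shRNA, 148.1 and 159.2 with harmine, and 166.3 and 179.8 in controls. The fitted log2 values were -0.09 (adjusted p = 0.927) and -0.17 (adjusted p = 0.956), each with a standard error of 0.18. *Sqstm1*, which encodes p62, had 171.3 and 120.3 CPM with *Dyrk1a* shRNA, 108.5 and 107.5 with harmine, and 105.5 and 138.5 in controls, where *Dyrk1a* shRNA replicate 1 stood apart from the other 5 libraries. *Nbr1* and *Calcoco1* lay at 0.06 and 0.28 with *Dyrk1a* shRNA and at -0.20 and 0.05 with harmine. All 5 receptors had a positive log2 fold change of *Dyrk1a* shRNA over harmine, from 0.08 to 0.85, while none of them passed. In that comparison 58.5% of the 41 genes and 49.9% of all genes tested were above 0.

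*Pink1*, on chromosome 4 (GRCm38, 138313409 to 138326307, minus strand), had 50.2 and 52.5 CPM with *Dyrk1a* shRNA, 45.6 and 45.1 with harmine, and 29.5 and 27.0 in controls. All 4 treated libraries lay above both controls, and replicates of a group differed by less than 3 CPM. The counts behind these values were 131 and 178 with *Dyrk1a* shRNA, 153 and 171 with harmine, and 47 and 32 in controls. The log2 fold change was 0.86 with *Dyrk1a* shRNA (standard error 0.22, 95% interval 0.39 to 1.32, unadjusted p = 0.00129, adjusted p = 0.612). With harmine it was 0.68 (standard error 0.22, 95% interval 0.21 to 1.14, unadjusted p = 0.00718, adjusted p = 0.866). Both comparisons use the same 2 controls. Between the treatments the difference was 0.18 (standard error 0.19, 95% interval -0.22 to 0.58, adjusted p = 0.934). Leaving out any 1 library left *Pink1* at 0.80 to 0.93 with *Dyrk1a* shRNA and at 0.62 to 0.75 with harmine. Over all alternatives the lowest adjusted p was 0.0893 and 0.268, both without control replicate 2, and the highest was 1.00 in each.

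The other mitophagy genes did not share this pattern. *Bnip3l* had 967 and 835 CPM with *Dyrk1a* shRNA, 1133 and 938 with harmine, and 859 and 925 in controls, and *Bnip3* had 804 and 854, 1075 and 879, and 866 and 789 CPM in the same groups. Their log2 fold changes were 0.015 and 0.0023 with *Dyrk1a* shRNA and 0.21 and 0.24 with harmine (standard errors of 0.23 to 0.24, adjusted p = 0.951 to 0.998). Both harmine libraries lay above both controls for each gene, by little in replicate 2. *Fundc1*, a receptor of the outer membrane, had -0.26 with *Dyrk1a* shRNA (standard error 0.21) and 0.05 with harmine. *Park2*, which encodes Parkin, had 0 counts in 5 libraries and 1 in control replicate 2. Of the transcription factors of lysosomal genes, *Tfe3* had 40.99 and 35.7 CPM with *Dyrk1a* shRNA, 35.5 and 29.6 with harmine, and 28.2 and 35.5 in controls. Its log2 fold changes were 0.28 (adjusted p = 0.778) and 0.04 (adjusted p = 0.988), each with a standard error of 0.24, and *Tfeb*, at 7.60 to 13.4 CPM, had 0.43 and 0.11 with standard errors of 0.39.

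**Figure D3:**
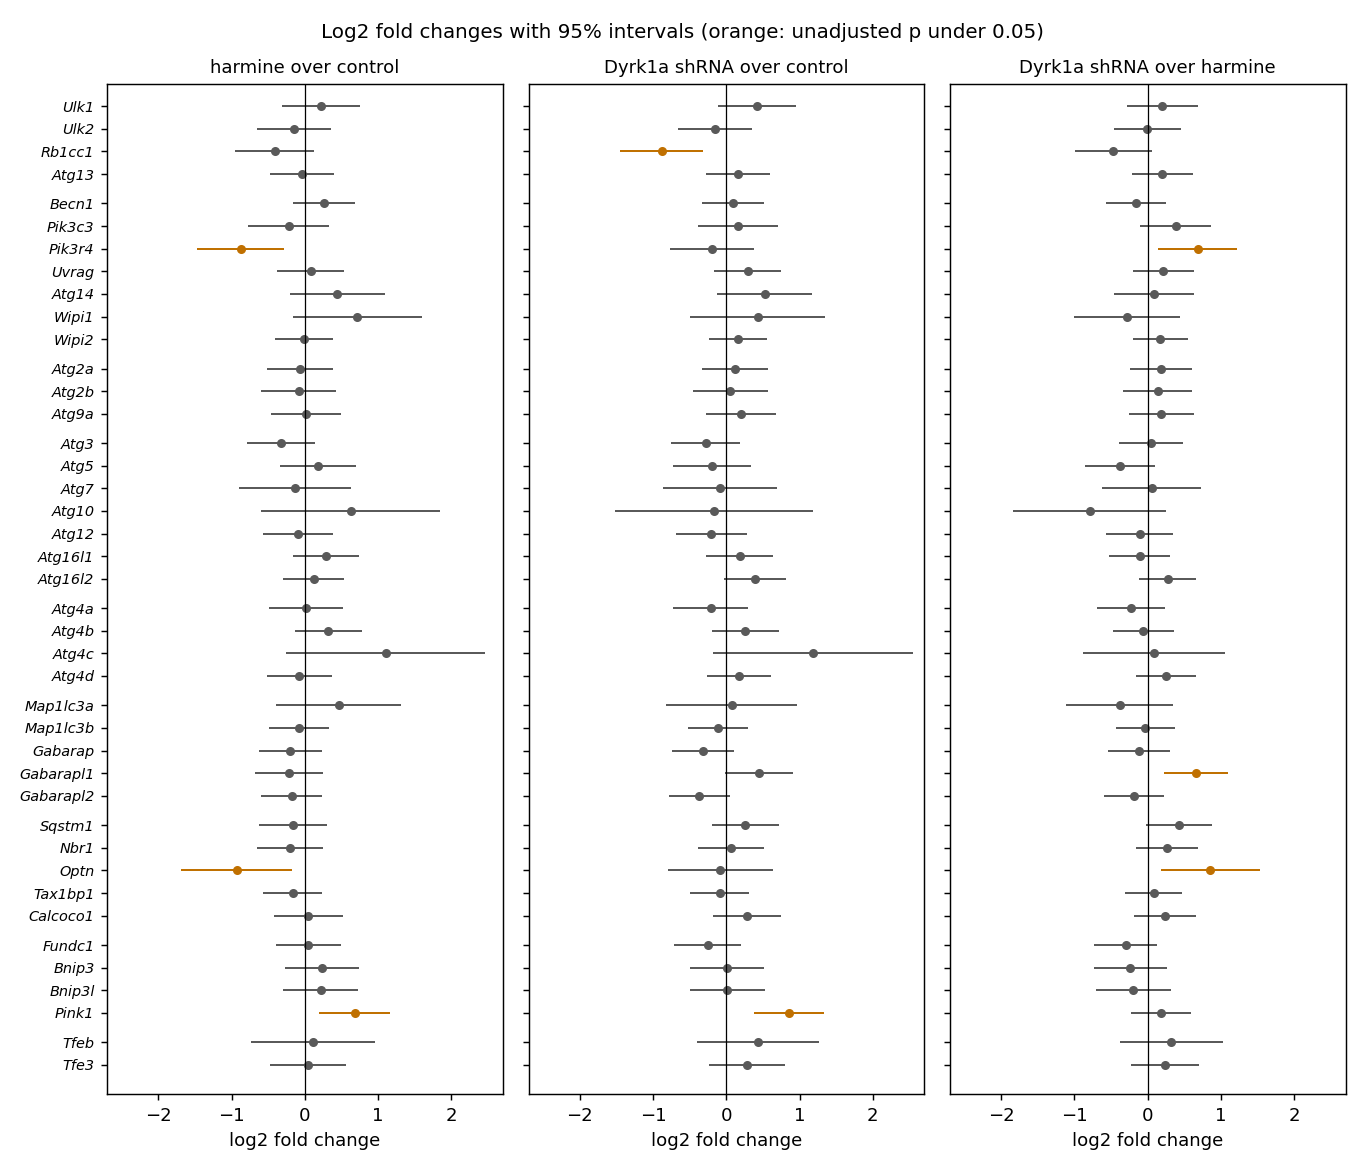
Log2 fold changes of the 41 genes with 95% intervals, for harmine over control (left), *Dyrk1a* shRNA over control (middle) and *Dyrk1a* shRNA over harmine (right). Intervals in orange have an unadjusted p under 0.05, and *Pink1* is the 1 gene with such an interval in both comparisons with control.

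Counted over the 41 genes, with *Dyrk1a* shRNA 0 genes passed after adjustment (0.0189% of 10607 genes tested did) and 2, *Pink1* higher and *Rb1cc1* lower, or 4.88%, had an unadjusted p under 0.05 (7.68% of all genes, 3.09% higher and 4.59% lower). With harmine 0 passed (0.00943% of all) and 3, *Pink1* higher and *Pik3r4* and *Optn* lower, or 7.32%, had an unadjusted p under 0.05 (5.32% of all, 2.22% higher and 3.09% lower). Between the treatments 0 passed (0.00943% of all) and 3, *Pik3r4*, *Optn* and *Gabarapl1*, or 7.32%, were higher with *Dyrk1a* shRNA at an unadjusted p under 0.05 (5.73% of all, 2.91% higher and 2.82% lower). DESeq2's Wald test also called 0 of them in each comparison, with 2, 2 and 1 at an unadjusted p under 0.05. Groups did not overlap for 19 of the 41 genes with *Dyrk1a* shRNA, or 46.3% (35.4% of all genes), of which 12 or 29.3% were higher (18.5% of all) and 7 or 17.1% lower (17% of all). With harmine they did not overlap for 17 or 41.5% (32.3% of all), 10 or 24.4% higher (16.4% of all) and 7 or 17.1% lower (15.9% of all). Between the treatments they did not overlap for 21 or 51.2% (41% of all), 14 or 34.1% higher (20.2% of all) and 7 or 17.1% lower (20.7% of all). The shares of genes that lay apart and higher were thus above those of all genes in each comparison, and the comparisons share libraries. No test was made of these shares.

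The median log2 fold change of the 41 genes was 0.09 with *Dyrk1a* shRNA, with 26 above 0 and 15 below, 0.01 with harmine, with 21 above and 20 below, and 0.08 between the treatments, with 24 above and 17 below. Of all genes tested, 48.3%, 47.5% and 49.9% were above 0 in the same comparisons. Over all genes tested the medians were -0.01, -0.02 and -0.00092. The 95% intervals lay wholly between -1 and 1 for 34 of the 41 genes with *Dyrk1a* shRNA, 33 with harmine and 34 between the treatments, so for most of them the interval leaves out a change of 2-fold or more in either direction. The same held for 64.9%, 67.7% and 75.8% of all genes. Leaving out control replicate 1 put the median with *Dyrk1a* shRNA at 0.0017, and leaving out control replicate 2 put it at 0.21, so that its size depended on which control was kept.

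The fold changes of *Dyrk1a* shRNA moved with the GC content of the transcript. Spearman's rho between GC content and log2 fold change was 0.558 over the 41 genes for *Dyrk1a* shRNA over control and 0.551 for *Dyrk1a* shRNA over harmine, against 0.332 and 0.411 over the 9990 tested genes with an annotated transcript. For harmine over control it was 0.058 over the 41 genes and -0.004 over all. Genes share libraries and are not independent replicates. *Pink1* has a GC content of 59.0% and *Rb1cc1* one of 39.1%, within the range of 38.8% to 63.2%. With trends of length and GC content removed from each library, *Pink1* was at 0.64 with *Dyrk1a* shRNA (standard error 0.21, adjusted p = 0.751) and 0.62 with harmine (standard error 0.21, adjusted p = 0.593), and *Rb1cc1* at -0.64 with *Dyrk1a* shRNA (standard error 0.23, adjusted p = 0.751). *Gabarapl1*, with 52.8% GC, kept a log2 fold change of 0.65 between the treatments.

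**Figure D4:**
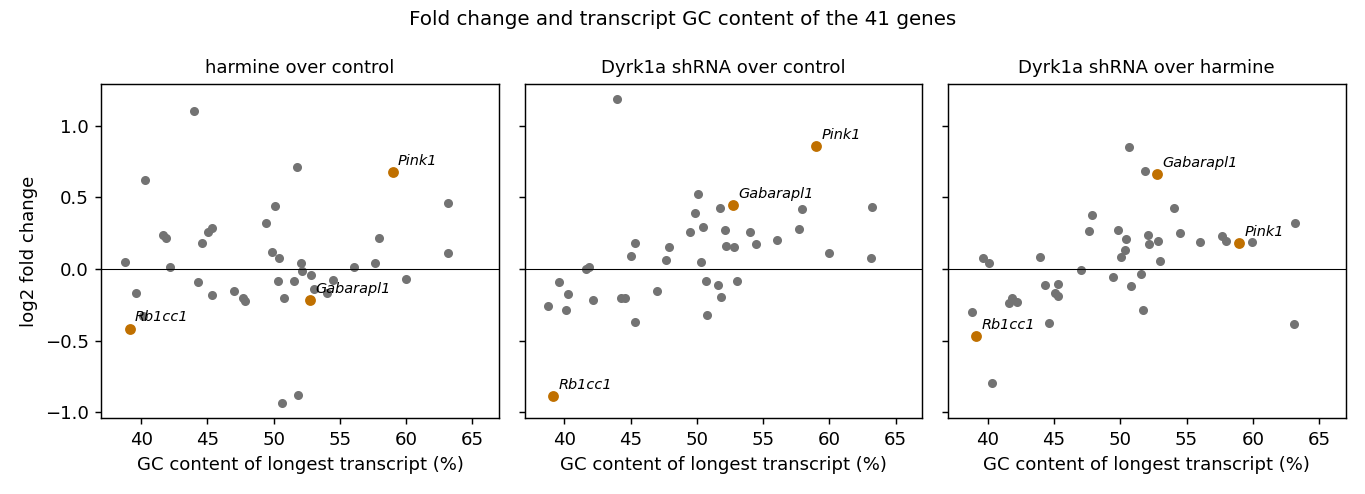
Log2 fold change (vertical axis) against GC content of the longest annotated transcript (horizontal axis, percent) for the 41 genes in the 3 comparisons, 1 point per gene. *Pink1*, *Rb1cc1* and *Gabarapl1* are named in orange, and the points slope upward in the 2 panels with *Dyrk1a* shRNA and not for harmine over control.

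Other genes of the pathway, in 5 lists, were read from the same fit, and 0 of them passed in any comparison. Of 24 further autophagy genes tested of 27 listed, 1 was higher and 2 were lower with *Dyrk1a* shRNA at an unadjusted p under 0.05, or 12.5% (7.68% of all genes), and 1 was higher and 1 lower with harmine, or 8.33% (5.32% of all). *Vmp1*, needed to form the autophagic membrane at the endoplasmic reticulum, had 188.9 and 198.7 CPM with *Dyrk1a* shRNA, 240.8 and 274.6 with harmine, and 285.0 and 325.9 in controls, at a log2 fold change of -0.65 with *Dyrk1a* shRNA (standard error 0.18, adjusted p = 0.612). *Vamp8*, a SNARE of autophagosome and lysosome fusion, was at -0.61 with both (adjusted p = 0.612 and 0.903). Of 19 further genes of mitophagy and mitochondrial dynamics tested of 21, 1 was higher with *Dyrk1a* shRNA at an unadjusted p under 0.05, or 5.26% (7.68% of all genes). With harmine 0 had an unadjusted p under 0.05 (5.32% of all). The 1 gene was *Usp30*, a deubiquitinase that opposes Parkin, at 0.74 with *Dyrk1a* shRNA (standard error 0.30, adjusted p = 0.612). With harmine *Usp30* was at 0.52 (standard error 0.30, adjusted p = 0.927).

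Of 44 lysosome genes tested of 45, 3 were higher and 3 lower with *Dyrk1a* shRNA at an unadjusted p under 0.05, or 13.6% (7.68% of all genes), and 1 was higher and 2 were lower with harmine, or 6.82% (5.32% of all). Their medians were 0.13 and 0.0024. Groups did not overlap for 13 that were higher with *Dyrk1a* shRNA, or 29.5% (18.5% of all), and 5 that were lower, or 11.4% (17% of all). *Gaa*, the lysosomal alpha-glucosidase, had 1.17 with *Dyrk1a* shRNA (standard error 0.38, adjusted p = 0.612) and 0.81 with harmine (standard error 0.38, adjusted p = 0.927). Its level was low, with 15.32 and 14.15 CPM with *Dyrk1a* shRNA, 11.33 and 11.62 with harmine, and only 5.65 and 7.60 in controls. *Atp6v0e*, a subunit of the proton pump, had 77.4 and 62.5 CPM with *Dyrk1a* shRNA, 74.5 and 75.8 with harmine, and 158.2 and 92.9 in controls, at -0.86 with *Dyrk1a* shRNA and -0.75 with harmine (standard error 0.23 each, adjusted p = 0.612 and 0.783). Of 32 regulators of the mTORC1 and AMPK pathways tested of 35, 4 were higher and 2 lower with *Dyrk1a* shRNA at an unadjusted p under 0.05, or 12.5% higher and 6.25% lower (3.09% and 4.59% of all genes). With harmine 4 were higher and 0 lower, or 12.5% higher (2.22% of all). Their medians were -0.06 and -0.07. With *Dyrk1a* shRNA they include *Stk11*, which encodes the AMPK-activating kinase LKB1, at 0.57 (standard error 0.20), *Flcn* at 0.59 and *Fnip1* at -0.51 (adjusted p = 0.612 each). *Stk11* had 131 and 126.2 CPM with *Dyrk1a* shRNA, 86.1 and 79.5 with harmine, and 73.4 and 101.3 in controls. With harmine they include the mTORC1 inhibitor *Ddit4* at 0.51 (standard error 0.20, adjusted p = 0.903), *Rptor* at 0.62 (adjusted p = 0.905) and *Nprl3* at 0.88 (adjusted p = 0.910). Of 14 further genes of the hypoxia response, which also induces *Bnip3*, 0 had an unadjusted p under 0.05 in any comparison, and 12 or 85.7% were above 0 with harmine (47.5% of all genes, median 0.14) and 10 or 71.4% with *Dyrk1a* shRNA (48.3% of all, median 0.17). Between the treatments 3 or 21.4% were above 0 and 11 below (49.9% of all above 0, median -0.049).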

How the data were processed

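RNAseq expected counts per gene, estimated by RSEM over known transcripts on mm10 after TopHat alignment, were deposited by the authors without normalization. The submitters' notes list TopHat2 2.0.13, RSEM and DESeq, with no annotation given in the sources used here. The library kit did not mark strand. Counts were rounded, and genes passing filterByExpr (minimum count 10; 10607 of 23420) were tested two-sided with edgeR 4.0.16 (R 4.3.3) by a robust quasi-likelihood fit of all 6 libraries after TMM scaling, with Benjamini-Hochberg adjustment over those genes at 0.05. A standard error is the log2 fold change over the root of F, and intervals are at 95%. Library totals were 1096364 to 3747663. Replicate counts differed by a chi-square per degree of freedom of 3.58 to 10.4, so none were merged.

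*Pink1*, members with an unadjusted p under 0.05 in a comparison, and the member of highest mean CPM in each of 9 role groups are given in full. From 5 other lists, named genes were among the 3 of smallest unadjusted p in a comparison. *Park2* and the other members with values were described after their values were seen. Members and lists were chosen with earlier results of these data known. Alternatives were other scalings (library size, DESeq2 size factors, without the 82 ribosomal protein genes), the DESeq2 1.42.0 Wald test, other filters (none, or 50 counts), a replicate block, fits of single pairs, spline removal of length and GC trends (4 degrees of freedom), thinning, sums with overlapping genes, and omission of each library. Positions are from GENCODE M21 on GRCm38, the assembly of mm10, and promoters from RefSeq.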

Additional observations from a re-analysis of the deposited data

How the results depend on the processing

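In edgeR's quasi-likelihood test and every alternative run, 0 of the 41 genes passed after adjustment. Over all genes, 1 passed with harmine, 2 with *Dyrk1a* shRNA and 1 between the treatments. These counts became 20, 28 and 21 without a filter, and 0, 5 and 4 when only the compared pair was fitted. Adding the replicate number as a block gave 0 with harmine and 0 between the treatments, and 0 of the 41 genes in each comparison. The labels tie replicate numbers to no shared source, and deviations of same-numbered libraries correlated by 0.103, 0.019 and 0.228. With harmine, DESeq2's Wald test called 3 and a minimum count of 50 left 0. With *Dyrk1a* shRNA, thinning gave 4. Between the treatments, library size scaling gave 3, DESeq2's Wald test 2 and removal of length and GC trends 0. Leaving out 1 library gave 0 to 288 with harmine, 1 to 438 with *Dyrk1a* shRNA and 0 to 4 between the treatments, with 288 and 438 both obtained without control replicate 2. The cause was not tested.

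The median log2 fold change of the 41 genes ran from -0.034 to 0.084 with harmine, from 0.0017 to 0.21 with *Dyrk1a* shRNA and from 0.029 to 0.12 between the treatments when 1 library was left out. It was -0.046 with harmine after thinning and 0.019 between the treatments after removal of length and GC trends. Removal of these trends reversed *Atg13* (-0.012), *Atg2a* (-0.14) and *Tax1bp1* (0.068) with *Dyrk1a* shRNA, and *Atg2a* (-0.080) between the treatments. With harmine, thinning reversed *Atg4d* (0.034), *Tfe3* (-0.046) and *Wipi2* (0.054), the sum with *Kri1* reversed *Atg4d* (0.20), and no filter reversed *Wipi2* (0.0081).

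Leaving out 1 library also turned the sign of small fold changes. With *Dyrk1a* shRNA the ranges were -0.54 to 0.066 for *Atg12*, -0.067 to 0.40 for *Atg13*, -0.052 to 0.29 for *Atg2a*, -0.095 to 0.11 for *Bnip3l*, -0.28 to 0.084 for *Map1lc3b*, -0.21 to 0.045 for *Optn* and -0.23 to 0.028 for *Tax1bp1*. With harmine they were -0.25 to 0.046 for *Atg12*, -0.26 to 0.20 for *Atg13*, -0.24 to 0.10 for *Atg2a*, -0.16 to 0.0033 for *Atg4d*, -0.25 to 0.12 for *Map1lc3b*, -0.13 to 0.20 for *Tfe3* and -0.088 to 0.055 for *Wipi2*. Between the treatments they were -0.44 to 0.17 for *Atg12*, -0.072 to 0.0071 for *Map1lc3b* and -0.053 to 0.20 for *Tax1bp1*. *Pink1*, *Rb1cc1*, *Gabarapl1* and *Pik3r4* kept their direction in every comparison and alternative run. Depth limits the genes under 10 CPM, where control libraries held few counts.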
